A study of Mus musculus with 6 samples.

Results

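SR protein genes and hnRNP genes were followed by RNA-Seq in B cells of mouse Peyer's patches, gut-associated lymphoid tissue where germinal centers (GCs) are present without immunization. They were taken as the protein-coding genes whose symbol starts with Srsf and a digit or with Hnrnp, which gave 31 of the 39179 gene identifiers measured, with 11 SR protein genes and 20 hnRNP genes. GC B cells (Fas+GL7+) and resting, or naive, B cells (Fas-GL7-) had been sorted from 12-week-old female WT C57BL/6 littermates that carried no engineered allele and received no treatment named in the labels. Each population was measured in 3 pools of 5 mice, so a value is an average over mice and over all cells of a sorted fraction. The study related gene expression in GC B cells to mutation by activation-induced deaminase. The contrast made here asks which genes differ between GC and naive B cells.

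SR proteins carry 1 or more RNA recognition motifs and a domain rich in arginine and serine. They bind exonic enhancers in pre-mRNA and recruit U1 and U2 snRNP factors to the splice sites, and SRPK and CLK kinases set their location and activity through phosphorylation. Heterogeneous nuclear ribonucleoproteins (hnRNPs) coat nascent transcripts through RRM or KH domains, often oppose SR proteins at exons, and also act in mRNA export, stability and translation. In lymphocytes, members of both families are known for the alternative splicing of Ptprc (CD45) and of immunoglobulin heavy chain transcripts. Many of these genes also restrict their own mRNA through ultraconserved exons that trigger its decay, and the gene-level values used here sum all transcripts of a gene and cannot separate such forms.

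The upstream sequences of 4 genes that the results below turn on are shown: Hnrnpab and Hnrnpd, the members with the largest rise in GC B cells, Hnrnpdl, the close relative of Hnrnpd that was not called, and Srsf5, the member that fell. Each line gives the 250 bases before the start of the gene in RefSeq (mouse GRCm38.p6), 5′ to 3′ on the strand of the gene. Capitals mark a CCAAT box (CCAAT, or ATTGG on the other strand) or an E-box (CACGTG, which reads the same on both strands).
Hnrnpab (chr11:51606882-51607131, minus strand): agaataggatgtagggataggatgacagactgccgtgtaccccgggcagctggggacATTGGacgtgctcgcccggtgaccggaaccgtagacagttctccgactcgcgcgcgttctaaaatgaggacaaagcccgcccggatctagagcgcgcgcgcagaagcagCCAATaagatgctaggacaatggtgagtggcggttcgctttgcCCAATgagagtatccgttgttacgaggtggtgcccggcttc
Hnrnpd (chr5:99978939-99979188, minus strand): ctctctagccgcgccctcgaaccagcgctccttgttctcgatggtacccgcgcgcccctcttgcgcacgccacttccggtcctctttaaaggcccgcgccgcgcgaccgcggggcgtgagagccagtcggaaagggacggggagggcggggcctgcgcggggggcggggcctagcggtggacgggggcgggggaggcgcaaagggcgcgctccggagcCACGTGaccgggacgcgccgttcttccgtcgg
Hnrnpdl (chr5:100039223-100039472, minus strand): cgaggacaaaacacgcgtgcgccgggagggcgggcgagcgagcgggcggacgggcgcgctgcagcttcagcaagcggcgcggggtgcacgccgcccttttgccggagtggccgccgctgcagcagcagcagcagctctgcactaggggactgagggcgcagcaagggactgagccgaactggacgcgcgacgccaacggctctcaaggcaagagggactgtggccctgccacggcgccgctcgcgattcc
Srsf5 (chr12:80945249-80945498, plus strand): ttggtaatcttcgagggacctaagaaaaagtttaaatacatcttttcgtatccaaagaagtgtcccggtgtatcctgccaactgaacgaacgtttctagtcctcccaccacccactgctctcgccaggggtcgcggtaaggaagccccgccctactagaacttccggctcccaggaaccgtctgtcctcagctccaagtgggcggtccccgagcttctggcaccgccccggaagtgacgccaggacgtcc
The Hnrnpab window held 3 CCAAT boxes and no E-box, and the Hnrnpd window 1 E-box and no CCAAT box. Neither motif was found in the windows of Hnrnpdl and Srsf5. Windows were found for 29 of the 31 genes, and none for Hnrnpll and Hnrnpul2. A CCAAT box was present in 16 of these 29 genes (55.2%), against 37.5% of all 27025 genes with a window. By call, it was present in 14 of 22 genes called higher in GC B cells and in 2 of the 7 others. An E-box was present in 3 of 29 (10.3%, against 6.86% of all genes), all 3 among the 22 called higher. The GC box (GGCGGG) was present in 26 of 29 (89.7%, against 35.1%; 19 of the 22 called higher and 7 of the 7 others) and the ETS core (CCGGAA) in 11 of 29 (37.9%, against 13.6%; 10 of 22 and 1 of 7) (each searched on both strands). None of the 4 motifs contains another. In the windows shown, GC boxes numbered 1 in Hnrnpab, 3 in Hnrnpd, 1 in Hnrnpdl and 1 in Srsf5. ETS cores numbered 1, 1, 0 and 2 in the same order. These 4 genes were chosen by their change. The windows of these genes were also richer in G and C, with a median of 68.0% against 52.4% for all windows, and they held more windows per gene (41 for 29 genes, 32851 for 27025). These are matches of letters and not measured binding.

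Expression was measured in TPM, which rescales each pool to the same total, corrects for transcript length, and can therefore be compared between genes. Sequencing depth was about 9700000 to 16200000 reads per pool, as estimated from the steps between low values, and between 12075 and 12450 genes reached 1 TPM. The labels were checked against marker genes. All 6 GC markers were higher in the GC pools (summed level 1410.4 to 1438 TPM, against 51.6 to 57.5 TPM in the naive pools) and all 6 naive markers lower (120.1 to 131 against 1740.2 to 1861 TPM), though Fas was itself used for the sort. Proliferation markers were higher in 8 of 8 (2120.3 to 2193 against 177 to 183 TPM). Of the plasma cell markers, 2 of the 5 tested were higher and 3 lower (787 to 823 against 219 to 252 TPM, most of it Jchain in the GC pools and Xbp1 and Irf4 in the naive pools), and Sdc1 was between 0.927 and 3.66 TPM in all pools. Of the epithelial markers, 5 of the 7 tested were lower in GC and 1 higher (41.1 to 76.3 against 118 to 156 TPM). T cell markers summed to 1.81 to 5.25 TPM and myeloid markers to 0.836 to 7.07 TPM over all pools. Stromal and endothelial markers summed to 22.6 to 24.7 TPM in GC and 122 to 132 TPM in naive pools, nearly all of it Pecam1, while Col1a1, Col1a2 and Col3a1 were at or near 0. These markers move with the same contrast as the splicing factors, and the part of proliferation or of other cells in the values below was not tested. In bulk samples, a change in the share of a cell type and a change in RNA per cell cannot be told apart.

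SR protein and hnRNP mRNAs were among the most abundant in both populations. Of the 31 genes, 29 passed the filter of 1 TPM in at least 3 pools, and each of these 29 lay within the top 14.1% of the 12785 genes tested in GC B cells and within the top 14.6% in naive B cells. Mean levels of at least 100 TPM were reached by 28 of them in GC and 27 in naive B cells, and levels of at least 500 TPM by 13 and 6. The highest in GC B cells was Hnrnpa2b1 with 1355, 1383 and 1356 TPM, rank 113 of all genes tested. Both genes left out by the filter were near 0: Srsf12, a short SR-like protein, was listed at 0 in the 3 GC pools and at 0.189, 0.643 and 0 TPM in the naive pools. Hnrnpll, known for CD45 splicing in T cells and plasma cells, was at 0.0689, 0.332 and 0.502 TPM in GC and 0.311, 0.274 and 0.400 TPM in naive pools, so that neither gene had levels in which a difference could be seen.

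**Figure D1:**
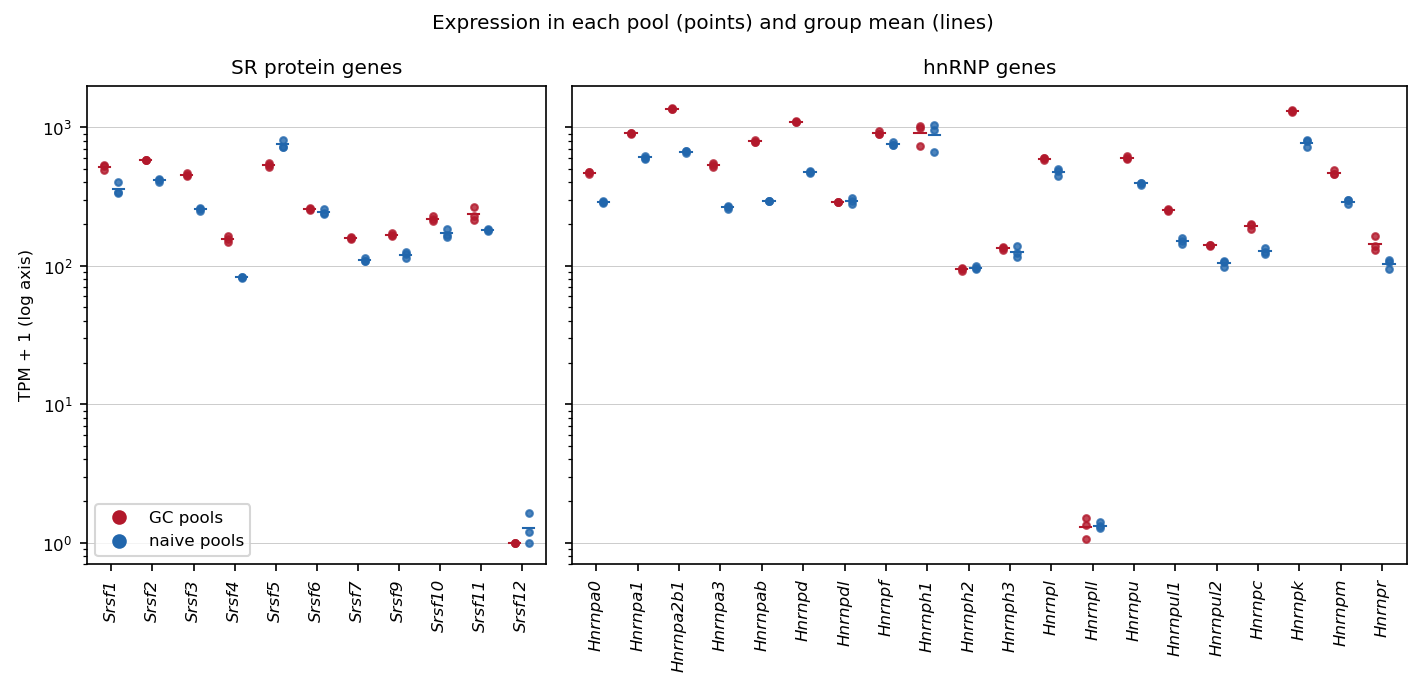
TPM + 1 of the 11 SR protein genes (left) and 20 hnRNP genes (right) in each of 3 GC pools (red) and 3 naive pools (blue), on a log axis, with a line at the group mean. The 29 tested genes lie far above Srsf12 and Hnrnpll, pools of a population lie close together except for Hnrnph1, and Srsf5 is the gene with all naive points above the GC points.

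Replicate pools were close. The median coefficient of variation of the 29 tested genes was 2.29% among GC pools and 3.85% among naive pools, and for the 1659 other genes at or above the lowest mean level among them (94.5 TPM) it was 3.87% and 5.74%. Hnrnph1, which binds G-rich RNA, was the exception, with 727, 1015 and 994 TPM in GC (CV 17.6%) and 956, 1029.8 and 662 TPM in naive pools (CV 22.0%). Its low pools were GC replicate 1 and naive replicate 3, and the populations overlapped.

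Most of these genes were more highly expressed in GC B cells. With limma on log2(TPM + 1), at a Benjamini-Hochberg adjusted p under 0.05 over all 12785 genes, 23 of the 29 tested were called higher in GC B cells, 1 (Srsf5) was called lower and 5 were not called (Srsf6, Hnrnph1, Hnrnph2, Hnrnph3 and Hnrnpdl). That is 79.3% called higher, against 35.5% of all genes tested, while 30.1% of all genes were called lower and 65.6% in either direction. Among the 1688 genes at or above 94.5 TPM the shares were 46.1% higher and 33.4% lower. The median log2 fold change was 0.52 over the 29 genes, 0.03 over all genes tested and 0.13 over the genes at that level. For each called member the 3 pools of a population did not overlap with those of the other, in the direction of the call. Over all genes, 37.8% did so with GC higher and 32.8% with naive higher. The rank among all genes improved in GC B cells for 24 of the 29 and worsened for 5. These 24 were the 23 called higher and Hnrnph1 (rank 163 in naive and 162 in GC B cells), so the ranks restate the calls. The share of all genes whose rank improved was not counted.

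**Figure D2:**
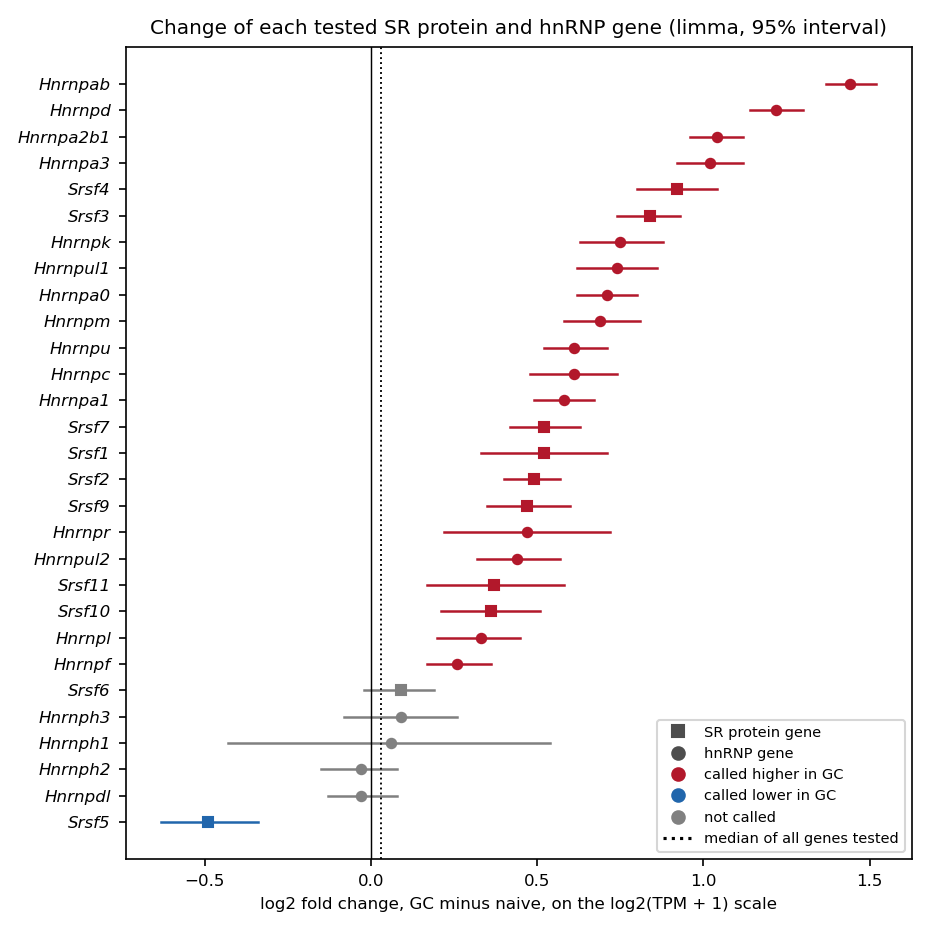
Log2 fold change (GC minus naive, on the log2(TPM + 1) scale) of the 29 tested genes with its 95% interval from limma, SR protein genes as squares and hnRNP genes as circles, colored by call, with a dotted line at the median of all genes (0.03). Intervals of 23 genes lie above 0 and that of Srsf5 below it, and Hnrnph1 has the widest interval.

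Among the SR protein genes, 8 of 10 tested rose, 1 fell and 1 was not called, with a median log2 fold change of 0.48. Srsf4 changed most, from 82.6, 81.3 and 80.3 TPM in naive to 148, 156 and 163 TPM in GC pools (log2 fold change 0.92, SE 0.050, adjusted p = 1.06e-05). It encodes a long SR protein with 2 RNA recognition motifs. Srsf3, the smallest of the classical SR proteins and an adaptor for mRNA export, was at 262, 254 and 246 TPM in naive and 451, 447 and 464 TPM in GC pools (0.84, SE 0.040, adjusted p = 6.18e-06). In both genes every GC pool stood well above every naive pool.

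Srsf5, a regulator of alternative exons, went the other way. It was at 725, 815 and 716 TPM in naive and at 534, 553 and 518 TPM in GC pools (log2 fold change -0.49, SE 0.060, 95% interval -0.63 to -0.34, adjusted p = 0.000486). It was thereby the SR protein gene with the highest level in naive B cells and came after Srsf2 in GC B cells. Srsf6, the closest to Srsf4 and Srsf5 in structure, was at 261, 253 and 257 TPM in GC and 238, 254 and 234 TPM in naive pools. Its populations overlapped, and the interval of its log2 fold change was -0.02 to 0.19 (adjusted p = 0.131).

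The other SR protein genes rose by smaller steps. Srsf1, the prototype of the family and a factor in constitutive and alternative splicing, was at 488, 529 and 524 TPM in GC and 341, 400.4 and 334 TPM in naive pools (0.52, SE 0.078, adjusted p = 0.00123). Srsf9, the nearest relative of Srsf1, was at 165, 170.3 and 162 TPM against 120.2, 124 and 112 TPM (0.47, SE 0.052). Both relatives rose, and Srsf9 stayed well below Srsf1 in every pool. Srsf2, a nuclear SR protein that is recurrently mutated in human myeloid neoplasms, was at 578, 576 and 581 TPM in GC and 412, 425 and 402 TPM in naive pools (0.49, SE 0.036, adjusted p = 4.72e-05). Srsf7, which acts with Srsf3 in mRNA export, was at 160.5, 155 and 158 TPM against 108, 113 and 107 TPM (0.52, SE 0.043). No pool of either gene crossed into the range of the other population.

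The SR-like genes changed least among the SR protein genes called higher. Srsf10, a splicing repressor when dephosphorylated, was at 208, 227 and 218 TPM in GC and 166, 183 and 161 TPM in naive pools (0.36, SE 0.063, adjusted p = 0.00247). Srsf11, an SR-like protein rich in arginine and serine, was at 212, 227 and 265 TPM against 176, 183 and 181 TPM (0.37, SE 0.084, adjusted p = 0.00765), and its GC pools were more spread than those of any other SR protein gene (CV 11.8%).

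Of the hnRNP genes, 15 of 19 tested rose, 0 fell in the limma fit (0 at an unadjusted p under 0.05, and 0 by limma without the trend or by a test of each gene alone) and 4 were not called, with a median log2 fold change of 0.61. The count that fell was 1 under quantile normalization (Hnrnph2, -0.17, adjusted p = 0.0132) and 1 after a correction for transcript length and GC content (Hnrnpdl, -0.16, adjusted p = 0.00449). The D group held both the largest changes and a gene that was not called. Hnrnpab, an RNA-binding protein of the CArG-box factor type, was at 291 TPM in each of the 3 naive pools and at 785, 787 and 808 TPM in GC pools (log2 fold change 1.44, SE 0.032, adjusted p = 3.22e-07), the largest change of all members. Hnrnpd, or AUF1, which binds AU-rich elements and sets the half-life of mRNAs, was at 479.6, 465 and 472 TPM in naive and 1086, 1116 and 1092 TPM in GC pools (1.22, SE 0.033, adjusted p = 6.07e-07). Both more than doubled, with ratios of 2.73 and 2.33. Hnrnpdl, the relative of Hnrnpd that lies close to it on chromosome 5, was at 287, 287 and 288 TPM in GC and 292, 307 and 279.8 TPM in naive pools. Its interval was -0.13 to 0.08 (adjusted p = 0.625), so that changes as large as those of Hnrnpd and Hnrnpab lie outside it.

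All 4 genes of the A/B group rose, with a median log2 fold change of 0.86. These proteins bind UAG-containing silencers and are the core of hnRNP particles. Hnrnpa2b1 went from 653, 669.8 and 670.2 TPM in naive to 1355, 1383 and 1356 TPM in GC pools (1.04, SE 0.032, adjusted p = 1.00e-06). Hnrnpa3 went from 264, 255 and 269.7 TPM to 552, 534 and 516 TPM (1.02, SE 0.042, adjusted p = 3.30e-06). Both thus doubled, with ratios of 2.05 and 2.03. Hnrnpa0, a factor in the stability of AU-rich mRNAs, was at 292, 286 and 283 TPM in naive and 456, 475 and 476 TPM in GC pools (0.71, SE 0.037). Hnrnpa1, the best known repressor of exon inclusion in this group, was at 588, 622 and 603 TPM in naive and 911, 915 and 887 TPM in GC pools (0.58, SE 0.037, adjusted p = 2.22e-05). The A/B genes have many processed copies in the genome, so their levels depend on how reads were divided among copies. The copies with such symbols, Hnrnpa1l2-ps and Hnrnpa1l2-ps2, did not exceed 0.346 TPM in any pool, and Srsf3-ps, a copy of an SR protein gene, did not exceed 1.11 TPM.

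In the F/H group, whose proteins bind G tracts, 1 of 4 genes was called higher, against 35.5% of all genes tested and 79.3% of the 29 members. With so few genes, this count does not by itself set the group apart. Hnrnpf was at 933, 897 and 896 TPM in GC and 787, 741 and 742 TPM in naive pools, the smallest change among the called genes (0.26, SE 0.041, adjusted p = 0.00141). After the correction for transcript length and GC content it was 0.12 (adjusted p = 0.0279), and with the replicate number as a block as well it was no longer called (adjusted p = 0.0531). Hnrnph1, described above, had an interval of -0.43 to 0.54 (adjusted p = 0.821), which is too wide to tell a rise like that of most members from no change. Hnrnph2, at 95.4, 94.3 and 90.4 TPM in GC and 93.6, 98.7 and 94.6 TPM in naive pools, had an interval of -0.15 to 0.08 (adjusted p = 0.550). Hnrnph3 was at 129.6, 133 and 135 TPM in GC and 115, 137 and 122 TPM in naive pools, with an interval of -0.08 to 0.26 (adjusted p = 0.320). For Hnrnph2 and Hnrnph3 the pools of both populations were interleaved, and the upper ends of their intervals lay below the median change of the 29 genes. Whether the F/H group differs from the other groups was not tested.

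The 3 genes of the U group, scaffold proteins of nuclear RNA and chromatin, all rose. Hnrnpu was at 588, 603 and 615 TPM in GC and 398, 398 and 382 TPM in naive pools (0.61, SE 0.038, adjusted p = 2.00e-05). Hnrnpul1 was at 246, 252 and 254 TPM against 150.4, 157 and 142 TPM (0.74, SE 0.050). Hnrnpul2 was at 141, 141 and 139 TPM against 106, 107 and 96.3 TPM (0.44, SE 0.053). The order of the 3 levels was the same in both populations, with Hnrnpu highest and Hnrnpul2 lowest. Hnrnpl, which binds CA repeats and silences CD45 exons, was at 599, 583 and 597 TPM in GC and 483, 496 and 441 TPM in naive pools (0.33, SE 0.052, adjusted p = 0.00158).

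The remaining hnRNP genes, C, K, M and R, were all called higher. Hnrnpk, a KH-domain protein that binds C-rich RNA and DNA, came close to Hnrnpa2b1 in level, with 1327, 1300.1 and 1286 TPM in GC and 811, 793 and 721 TPM in naive pools (0.75, SE 0.052, adjusted p = 3.32e-05). Hnrnpm was at 460.3, 459 and 487 TPM against 296, 276 and 295 TPM (0.69, SE 0.046). Hnrnpc, which binds U tracts and keeps cryptic exons out of mRNA, was at 199, 196 and 184 TPM against 124, 121 and 133 TPM (0.61, SE 0.054). In these 3 genes the lowest GC pool was well above the highest naive pool. Hnrnpr was the least certain, at 139, 128 and 163 TPM against 105, 109 and 94.2 TPM (0.47, SE 0.102, adjusted p = 0.00649).

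Added up, the 20 hnRNP genes made 11016, 11298 and 11263 TPM in the GC pools and 7286, 7361 and 6794 TPM in the naive pools. That is 1.12% of all TPM in GC B cells and 0.715% in naive B cells, a ratio of 1.57. The 11 SR protein genes made 3204, 3292 and 3309 TPM in GC and 2631, 2833 and 2572 TPM in naive pools, a ratio of 1.22. Together the 31 genes averaged 14461 TPM (SD 208, n = 3) over GC pools against 9826 TPM (SD 422, n = 3) over naive pools. Sums of GC and naive pools did not overlap for either family. Without Hnrnph1 the hnRNP sum was 10289, 10283 and 10269 TPM in GC and 6330.1, 6331 and 6132 TPM in naive pools, a ratio of 1.64.

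**Figure D3:**
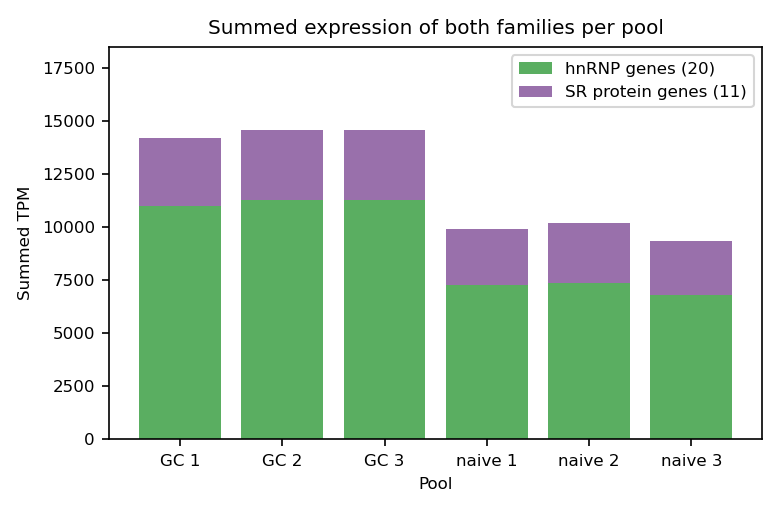
Summed TPM of the 20 hnRNP genes (green) and the 11 SR protein genes (purple) in each of the 6 pools, stacked from 0. The GC pools reach 14220.2 to 14589.6 TPM and the naive pools 9366 to 10194 TPM, and most of the step lies in the hnRNP genes.

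The make-up within each family also shifted. Srsf5 made up 28.0% of the SR protein mRNA in naive B cells (27.56 to 28.75% over pools) and 16.4% in GC B cells (15.65 to 16.81%). Srsf2, at 17.7%, had the largest share in GC B cells. Srsf3 went from 9.49% to 13.9% and Srsf4 from 3.04% to 4.76%. Among hnRNP genes, Hnrnpa2b1 had the largest share in GC B cells (12.2%, against 9.31% in naive B cells) and Hnrnph1 in naive B cells (12.3 ± 2.24%, SD, n = 3, against 8.14 ± 1.33%, SD, n = 3). Hnrnpd went from 6.61% to 9.81% and Hnrnpab from 4.08% to 7.09%. Shares fell for Hnrnpf (10.6% to 8.12%), though its level rose, and for Hnrnpdl (4.10% to 2.57%). Shares of 1 family are tied to each other, so they were given no test.

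Ratios of related genes were compared within each pool, where dividing a pool by a constant has almost no effect. Of 18 such ratios, 16 had both genes tested, and in 11 of these (68.8%) the GC and naive pools did not overlap. For all possible ratios of tested genes this share was 71.1%, so that ratios of relatives separated the populations about as often as those of any genes. With 3 pools per population the two-sided exact permutation test over 20 splits cannot go below p = 0.1, which each of the 11 reached (adjusted p = 0.138 over 18 ratios).

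The widest shift was in Hnrnpdl over Hnrnpd, with log2 ratios of -1.92, -1.95 and -1.92 in GC and -0.71, -0.60 and -0.75 in naive pools, a difference of -1.24. Srsf4 over Srsf6 had log2 ratios of -0.82, -0.70 and -0.66 in GC and -1.52, -1.63 and -1.53 in naive pools, a difference of 0.84. Srsf5 over Srsf6 was at 1.03, 1.12 and 1.01 against 1.60, 1.68 and 1.61, a difference of -0.57. Srsf4 and Srsf5 thus moved in opposite directions around Srsf6. Hnrnpa1 over Hnrnpa2b1 was at -0.15, -0.11 and -0.15 in naive and -0.57, -0.59 and -0.61 in GC pools, so that Hnrnpa2b1 was the higher of both throughout and by more in GC B cells. Hnrnpr over Syncrip, which encodes the closely related hnRNP Q, turned from 0.38, 0.23 and 0.23 in naive to -0.21, -0.33 and -0.01 in GC pools. The other ratios that did not overlap were Hnrnpa3 over Hnrnpa1 (difference 0.44), Srsf3 over Srsf7 (0.31), Hnrnpul2 over Hnrnpul1 (-0.30), Hnrnpd over Hnrnpab (-0.23), Hnrnpul1 over Hnrnpu (0.13) and Hnrnpa0 over Hnrnpa1 (0.13). Overlap was seen for Srsf1 over Srsf9 (difference 0.05), Srsf2 over Srsf1 (-0.04) and the 3 ratios to Hnrnph1, which carry the spread of that gene. Srsf10 over Srsf12 and Hnrnpll over Hnrnpl contain a gene near 0 and were not read.

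**Figure D4:**
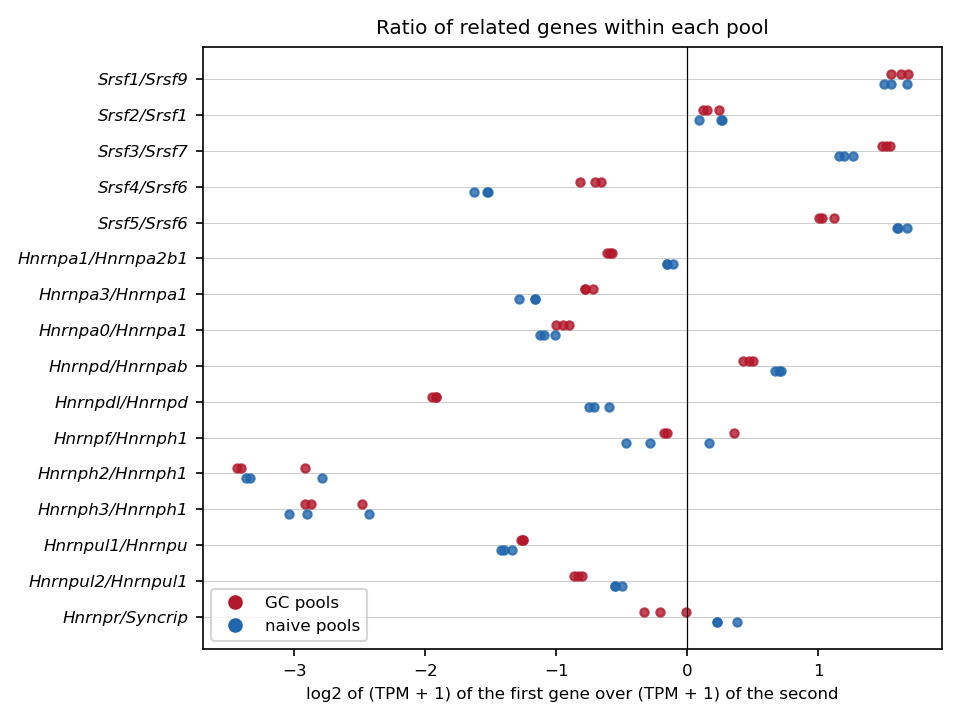
Log2 of the ratio (TPM + 1) of related genes in each of 3 GC pools (red) and 3 naive pools (blue), for the 16 ratios with both genes tested. Red and blue points stand farthest apart for Hnrnpdl/Hnrnpd, Srsf4/Srsf6 and Srsf5/Srsf6, and mix for the ratios to Hnrnph1.

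Genes that act on or with SR proteins and hnRNPs were counted in the same fit. Of 14 SR protein kinases and phosphatases, 7 were called higher in GC B cells and 3 lower, with a median log2 fold change of 0.21. Of all genes tested, 35.5% were called higher, and 46.1% of those at or above 94.5 TPM. The count of 7 in 14 was above both shares. Most of the 14 genes lay below 94.5 TPM by the mean of all 6 pools, so the share of all genes tested is the closer background. The excess over it was not tested. The 3 lower were kinases, Clk1 (320.2, 348 and 293 TPM in naive and 197, 179.7 and 206 TPM in GC pools, -0.72), Srpk3 (-0.61) and Clk4 (-0.55), the last 2 chosen after their values were seen. Ppp1ca and Ppp1cc, catalytic subunits of protein phosphatase 1, were the most abundant of the list by the mean of all 6 pools and rose by 0.82 and 0.51. CLK kinases release SR proteins from nuclear speckles, and SRPK kinases act on them mainly in the cytoplasm.

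Of 10 genes for nuclear transport and arginine methylation of these proteins, 5 rose and 5 were not called (median 0.26). Of all genes tested 35.5% rose, and of those at or above 94.5 TPM 46.1%. Most of the 10 genes lay below that level by the mean of all 6 pools, so the share of all genes tested is the closer background. The export adaptor Alyref, at 422, 421 and 454 TPM in GC and 158, 129 and 149.8 TPM in naive pools, changed most (1.57, SE 0.082), followed by Prmt1, the main arginine methyltransferase of hnRNPs (0.69, SE 0.055). Nxf1, the export receptor and next to Alyref by the mean of all 6 pools, had a log2 fold change of -0.36 that was not called (adjusted p = 0.0528), and it was the 1 gene of the list that was lower at an unadjusted p under 0.05. Of 24 SR-related proteins, 10 rose (41.7%, against 35.5% of all genes tested and 46.1% of those at or above 94.5 TPM). Most of the 24 lay at or above that level by the mean of all 6 pools. The share of 46.1% is thus the closer background, and 41.7% was below it. In the same list 1 fell (Son, -0.21, chosen after its value was seen) and 13 were not called, with a median of 0.03. U2af1, the small subunit of the factor that reads the 3′ splice site, rose from 98.2, 95.4 and 96.9 TPM to 244, 232 and 227 TPM (1.27, SE 0.044), and Scaf11 rose by 1.18. The most abundant of this list by the mean of all 6 pools, Rbm39 and Acin1, were not called (-0.08 and -0.05).

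Of 20 hnRNPs that carry other symbols, 15 rose, 3 fell and 2 were not called (median 0.58, against 0.61 for the genes with an Hnrnp symbol). Among all genes tested, 35.5% rose and 30.1% fell. Among those at or above 94.5 TPM, 46.1% rose and 33.4% fell. Most of the 20 genes lay at or above that level by the mean of all 6 pools, so the latter shares are the closer background. The count of 15 in 20 was above both shares that rose, and 3 in 20 was below both that fell. Whether the 20 genes differ from either background was not tested. The largest changes were in the weakly expressed poly(C)-binding genes Pcbp3 (4.08, 4.78 and 3.02 TPM in naive and 0.0827, 0.180 and 0.153 TPM in GC pools, -2.11) and Pcbp4 (5.35, 5.46 and 5.55 TPM in naive and 22.4, 23.4 and 24.8 TPM in GC pools, 1.92). The others that fell, named after their values were seen, were Cirbp, the cold-inducible RNA-binding protein (-1.18), and Ptbp2, the neuronal polypyrimidine tract protein (-0.44). Ewsr1, at the highest level in GC B cells among these, rose by 0.60. Of 27 regulators known from particular tissues, such as neurons, muscle or epithelium, 9 passed the filter and 7 were listed at 0 in every pool. Among the 9, 7 rose (77.8%, against 35.5% of all genes tested), 1 fell and 1 was not called, with Mbnl3 (1.87) and Mbnl2 (-0.85) at the ends of the range. Mbnl1 and Khdrbs1 had the highest means over all 6 pools and rose by 0.23 and 0.38.

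The proteins of the spliceosomal snRNPs, the machinery that SR proteins and hnRNPs direct, were called higher in 36 of 42, lower in 1 (Prpf6, -0.24, chosen after its value was seen) and not in 5, with a median of 0.71. That is 85.7% called higher, against 35.5% of all genes tested and 46.1% of those at or above 94.5 TPM. Snrpd1, a core Sm protein, went from 55.8, 46.8 and 57.3 TPM in naive to 175, 190.1 and 175 TPM in GC pools (1.74, SE 0.087). The largest change, in Snrpn (2.09), was between levels of at most 3.78 TPM. Snrpn is nearly identical in protein to Snrpb, and whether reads were divided between them was not tested. Snrpb itself rose by 0.98, and Lsm4, the most abundant by the mean of all 6 pools, by 0.84 with a wide spread among GC pools (538, 357 and 669 TPM). Snrnp70 stands in this list and in that of the SR-related proteins. Over the 118 genes tested of all these lists, 9 were called lower in GC B cells, against 30.1% of all genes tested. Under other scalings between pools (FPKM as deposited, median ratios and quantile normalization), 15 to 22 of them were called lower.

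**Figure D5:**
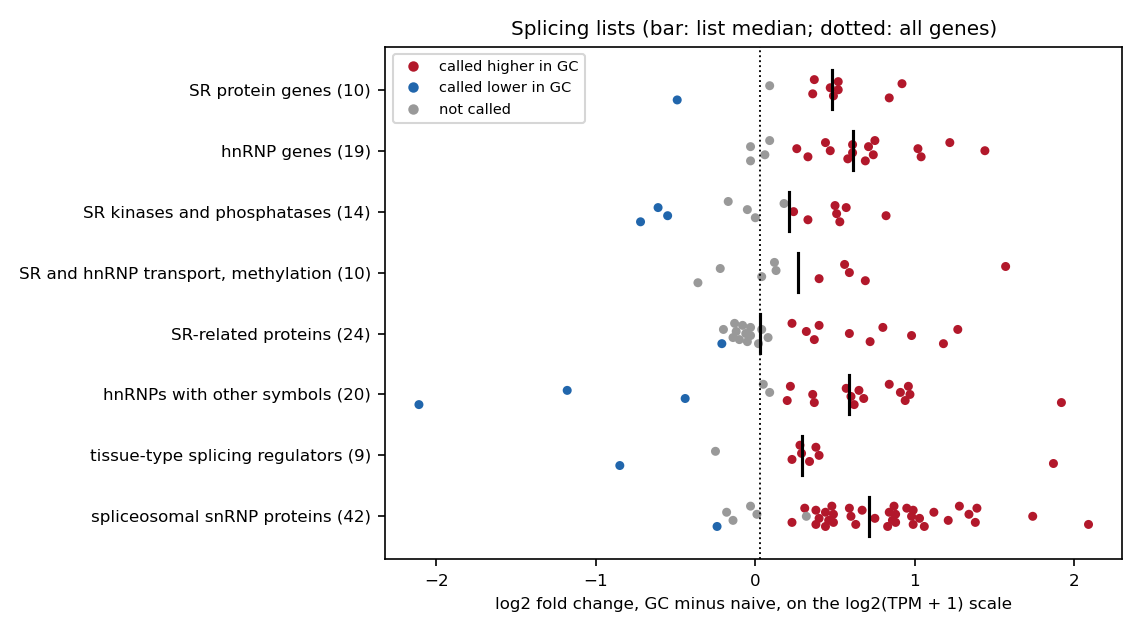
Log2 fold change (GC minus naive, log2(TPM + 1) scale) of the tested genes of 8 lists, colored by call, with a bar at each list's median and a dotted line at the median of all genes tested (0.03). The medians of the SR protein genes (0.48), hnRNP genes (0.61), hnRNPs with other symbols (0.58) and snRNP proteins (0.71) lie to the right of the line, and that of the SR-related proteins (0.03) lies on it.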

How the data were processed

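Per the labels and the study's methods, total RNA of sorted B cells was made into libraries with an NEBNext Ultra kit and sequenced. The authors removed adapters with cutadapt 1.9, used RSEM 1.2.25 to align the reads to mouse transcripts (NCBIm38 v75) and estimate expression, and deposited 1 FPKM value per gene and pool. The submitters' processing notes also list CASAVA 1.8, FastQC and edgeR, the last with no role given. RSEM divides reads among similar transcripts, so genes with near-identical copies are less certain, as are genes that overlap another, since counting by strand is not stated.

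FPKM was divided by the pool total and multiplied by 1000000 to give TPM. Totals of the deposited FPKM were 717537 to 725698 in GC and 730632 to 774597 in naive pools. Depth was estimated from FPKM steps of genes with a transcript of 250 to 900 bases. Only 66.5% to 74.4% of low values lay within 0.15 of a whole read, so depth is approximate and no count test was used. Symbols came from GENCODE vM1 (33398 of 39179 identifiers), with current RefSeq names through synonyms. These gave 2 members, Hnrnpdl and Hnrnpll, and 3 genes with matching symbols were left out as pseudogenes. Of these, Hnrnpa1l2-ps is a pseudogene in both annotations, Hnrnpa1l2-ps2 in GENCODE alone and Srsf3-ps in RefSeq alone.

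The contrast of GC and naive pools was fitted by limma 3.58.1 (R 4.3.3; lmFit, eBayes with trend) on log2(TPM + 1), which understates changes of low genes. It covered the 12785 genes that reached 1 TPM in 3 or more pools. Family sums have no test, and ratios a two-sided exact permutation test. Other steps used Python 3.11.15, numpy 2.4.6, pandas 2.3.3 and matplotlib 3.10.9. Alternatives were the pseudocount, filters, scalings, variance model, a Student test per gene, the replicate block, each pool left out and, added after the data were seen, a correction for transcript length and GC content and the hnRNP sum without Hnrnph1.

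The members, the related lists and the tests were chosen with earlier results of these data known. Every member was named, as were, from each related list, the 2 genes with the largest change among those called and the 2 most abundant, all genes of the ratios, and marker genes; some items that fall under this rule are not reported here. 1 listed gene, Lsm8, was not found under that symbol.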

Additional observations from a re-analysis of the deposited data

How the results depend on the processing

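All 24 called members kept their call under each alternative except the correction for transcript length and GC content with the replicate block, which left 23 (Hnrnpf, 0.12, adjusted p = 0.0531). Members' median log2 fold change stood 0.42 to 0.51 above that of all genes under each setting. The number of hnRNP genes lower in GC B cells went from 0 to 1 under quantile normalization (Hnrnph2, -0.17, adjusted p = 0.0132) and to 1 under the correction for GC content and length, without and with the block (Hnrnpdl, -0.16, adjusted p = 0.00449 and 0.0199). Without naive replicate 2, Srsf6 (0.12, adjusted p = 0.0395) and Hnrnph3 (0.16, adjusted p = 0.0410) were also called higher, and Hnrnpdl was at 0.01. Genes of the related lists lower in GC B cells numbered 9, and 15 with FPKM as deposited, 22 with quantile normalization, 16 with median ratio scaling, 18 with the correction, without and with the block, and 8 to 15 with a pool left out, the 15 without naive replicate 3. The ratio of hnRNP sums was 1.64 without Hnrnph1.

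Of the 5 members that were not called, Hnrnph2 was below 0 in every setting, and the sign of the other 4 depended on the setting. Srsf6 was at -0.01 under quantile normalization and -0.06 under the correction with or without the block, and Hnrnph3 at -0.04 and -0.06. Hnrnph1 was at -0.01 under median ratio scaling, at -0.11 under the correction with or without the block, and between -0.14 and 0.21 with a pool left out. The Hnrnph3 over Hnrnph1 difference was -0.11 under quantile normalization and between -0.11 and 0.21 with a pool left out, and that of Hnrnph2 over Hnrnph1 between -0.26 and 0.10. The cause was not tested in any of these. The median of all genes lay between -0.06 and 0.07 over the settings.

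Deviations from the group means correlated by 0.083, 0.022 and 0.046 between same-numbered GC and naive pools. Between pools of different number the correlations were -0.075 to 0.030. With 3 pools per population, these values cannot show whether the pools were paired. The labels state no pairing, so the replicate number was left out of the main fit and used as an alternative. With the replicate number as a block, 4342 genes were called higher and 3618 lower, and the 23 higher and 1 lower members were the same genes. Srsf12 and Hnrnpll were too low to be tested, and Hnrnph1 and Hnrnpr had the largest standard errors among members, the source of which was not tested.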
